A study of Mus musculus with 18 samples.

Results

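The 36 genes described here encode proteins of insulin signaling and glucose transport: receptors and receptor substrates, receptor inhibitors, subunits of PI3K, PDK1 and Akt, the Rab GTPase-activating proteins Tbc1d1 and Tbc1d4, glucose transporters, FoxO factors, GSK3, parts of the mTOR complexes, protein kinase C isoforms and the catalytic subunits of AMPK. They were listed by name for their roles in the pathway, with earlier results of these data known, and all 36 of 36 were matched to 1 gene each among the 55414 genes of the count table and had at least 10 counts in total, the limit that left 21772 genes for testing. RNA came from C2C12 cells, an established mouse myoblast line that fuses into myotubes, and 18 libraries were sequenced, 3 for each of 6 groups. All cells were transfected at confluence with a pool of siRNAs, either non-targeting (siNTC) or against Erk3 (siErk3) or Mk5 (siMk5), a pair of protein kinases. All were differentiated for 6 days. For the last 16 h the medium held no serum and contained either BSA, the vehicle, or 0.5 mM of the saturated fatty acid palmitic acid (PA) conjugated to BSA. The groups were therefore siNTC BSA, siErk3 BSA, siMk5 BSA, siNTC PA, siErk3 PA and siMk5 PA. The protocols name no insulin treatment of these libraries, all cells are of a single line, and nothing says whether the 3 libraries of a group came from separate cultures, so that p-values measure only the spread between these libraries.

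Insulin binds its receptor, which phosphorylates the Irs substrates and so recruits PI3K, whose lipid product brings PDK1 and Akt to the membrane. Akt in turn inhibits FoxO factors, GSK3 and the brakes on vesicles that carry the transporter GLUT4, and activates mTOR complex 1. Skeletal muscle takes up much of the glucose that insulin clears from the blood, and fatty acid overload of muscle cells is a widely used model of impaired insulin action. Counts measure RNA, not protein or phosphorylation.

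Library totals ran from 13041979 to 28496727 counts. The share of counts on 18S ribosomal RNA ran from 1.5% to 12.9% and was highest in siMk5 BSA (8.39% to 12.9%). Levels are given as CPM, counts relative to library sizes scaled by TMM. Mapk6, which encodes Erk3, stood at 55.2 to 60.3 CPM in siErk3 BSA against 129 to 135 CPM in siNTC BSA, and at 109 to 131 CPM in siErk3 PA against 215 to 244 CPM in siNTC PA. Mapkapk5, which encodes Mk5, stood at 1.18 to 2.01 CPM in siMk5 BSA against 2.32 to 2.54 CPM in siNTC BSA, and at 2.17 to 2.43 CPM in siMk5 PA against 2.52 to 3.92 CPM in siNTC PA, with an FDR of 0.469 for either difference by edgeR, and shares 56.4% of its exonic bases with Gm42878. All 10 of 10 myotube markers were at 129 CPM or above in every library. Their summed level was 8780 to 9280 CPM in siNTC BSA, 9740 to 10900 in siErk3 BSA and 8450 to 9130 in siMk5 BSA, and lower with PA at 7550 to 7700, 8370 to 8870 and 7600 to 8010 CPM, without overlap within an siRNA. Mean levels of single myotube markers went both ways between siNTC BSA and siErk3 BSA. Myh3 went from 2430 to 3190 CPM and Acta1 from 3190 to 3520 CPM, and Myh8, Actn2 and Ckm were also higher. Myh1 went from 1040 to 971 CPM and Myh4 from 388 to 328 CPM, and Mb, Myog and Mymk were also lower. The summed level of 7 myoblast and proliferation markers was 960 to 1030 CPM in the 9 BSA libraries and 406 to 534 CPM in the 9 PA libraries. The summed level of 9 markers of other cell types was 0.98 to 2.52 CPM, with Plin1 and Alb at 0 in all libraries.

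Levels of different members were compared per kb of exon. In siNTC BSA they ran from 0.017 CPM per kb for Prkcq, a protein kinase C isoform of skeletal muscle and T cells, to 78.6 CPM per kb for Akt1, with a median of 9.88 CPM per kb over the 36 members. Akt1 and Prkcq were singled out here after their values were seen. The members below 1 CPM per kb numbered 6. Slc2a4, which encodes the insulin-responsive transporter GLUT4, was among them at 0.183 ± 0.0203 CPM per kb (SD, n = 3), rank 34 of 36, whereas Slc2a1, which encodes the basal transporter GLUT1, stood at 13.2 ± 0.791 CPM per kb (SD, n = 3), rank 10 of 36. The defining transporter of insulin-responsive muscle was thus close to the lower end of detection in these myotubes, at 9 to 17 counts per siNTC BSA library. The members with fewer than 50 counts in at least 1 library numbered 5, namely Grb10, Grb14, Prkcq, Slc2a3 and Slc2a4, and the other members had at least 100 counts in every library.

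**Figure D1:**
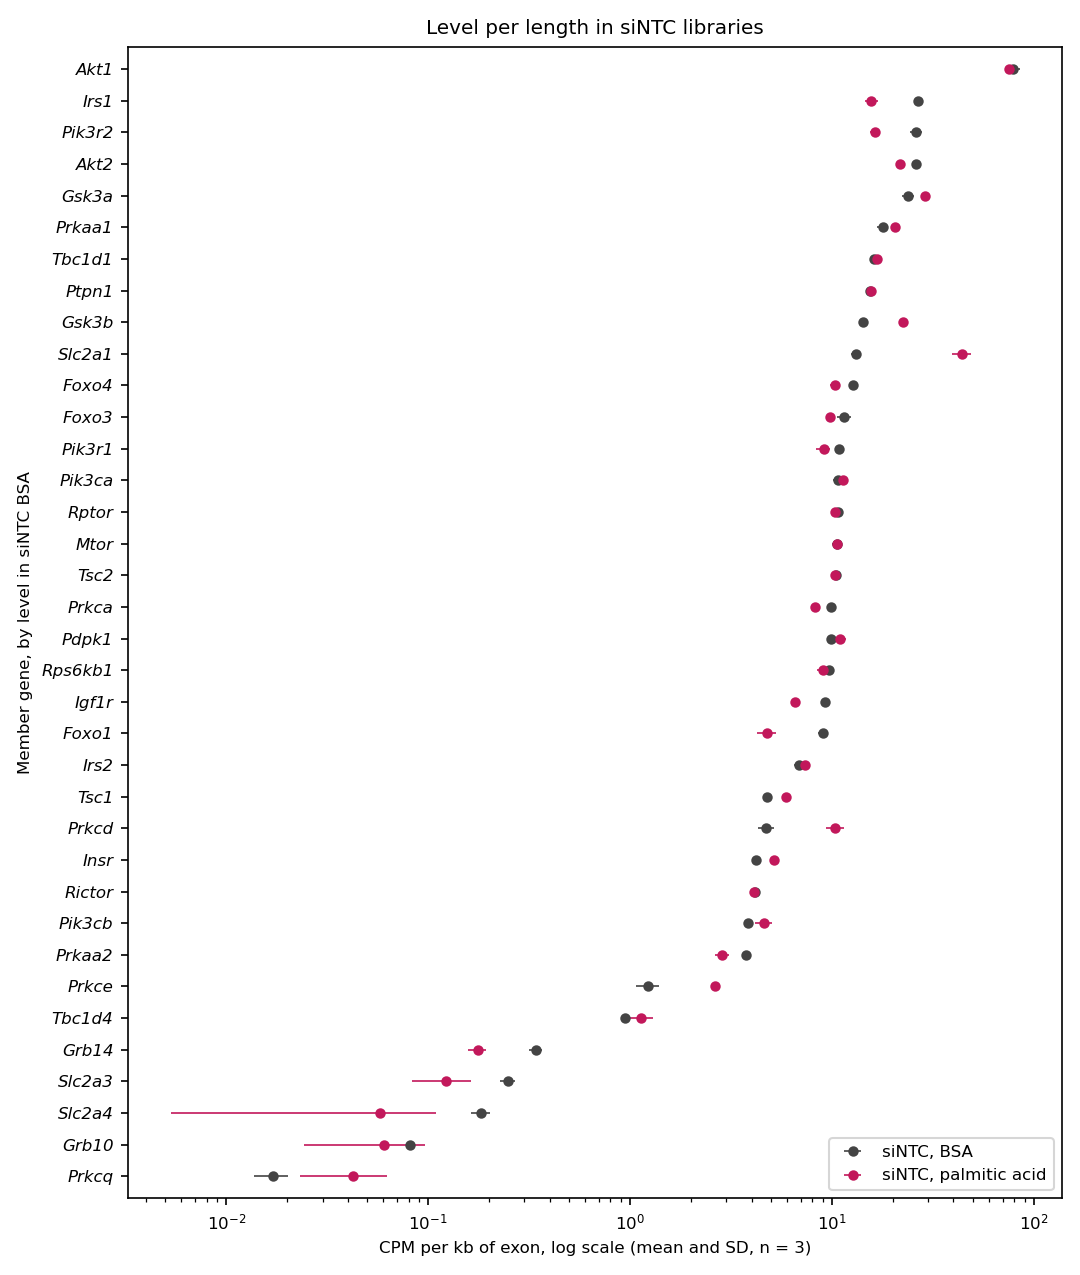
Level of each of the 36 members in CPM per kb of exon on a log axis, with mean and SD of 3 libraries, in siNTC BSA (grey) and siNTC PA (red), ordered by the level in siNTC BSA. Slc2a1 moves from rank 10 to rank 2, while Slc2a4 and Slc2a3 stay near the bottom.

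Palmitic acid was compared with BSA separately in siNTC, siErk3 and siMk5 cells, which asks how fatty acid overload moves these genes and whether it does so again when either kinase is silenced. The largest increase was in Slc2a1, at 3.33-fold in siNTC. Genes that fell in all 3 were the transporter Slc2a3, the receptor Igf1r, the substrate Irs1, the PI3K subunit Pik3r2, the adaptor Grb14 and the transcription factor Foxo1. The transporter Slc2a4, with 2 to 9 counts per siNTC PA library, passed as lower in siNTC and siErk3 but not in siMk5. Protein kinase C isoforms Prkcd and Prkce and the kinase Gsk3b rose. A gene was called changed at an FDR below 0.05 by edgeR's quasi-likelihood test, adjusted over all 21772 genes, together with a fold change above 1.3, and FDR values below are from that test. In siNTC, 12 of 36 members were changed (33.3%), 4 higher and 8 lower, where 30.6% of all genes tested were changed, 15.5% higher and 15.1% lower. In siErk3 the changed members numbered 13 of 36 (36.1%), 4 higher and 9 lower, against 32.1% of all genes, 15.8% higher and 16.3% lower. In siMk5 they numbered 13 of 36 (36.1%), 4 higher and 9 lower, against 29.7% of all genes, 15.1% higher and 14.6% lower. At the FDR alone, 23, 27 and 23 members passed in siNTC, siErk3 and siMk5 (63.9%, 75% and 63.9%), beside 45.1%, 47.1% and 44.3% of all genes. The median log2 fold change of the members was -0.01 in siNTC, -0.07 in siErk3 and -0.05 in siMk5, beside -0.03, -0.01 and -0.01 over all genes. The groups did not overlap for 27, 26 and 28 of the 36 members in siNTC, siErk3 and siMk5 (75%, 72.2% and 77.8%), beside 51.3%, 53.9% and 51.9% of all genes. The shares of changed members were thus near those over all genes, whereas the shares at the FDR alone and without overlap, which ask for no size of change, were higher among the members. The members were also counted more deeply, with a median over genes of 1810 counts per library against 86.4 over all genes tested, and the part of depth in these shares was not tested. For single members an exact permutation test of 3 against 3 libraries cannot give a p-value below 0.1. Fewer cells of a type and less RNA per cell cannot be told apart in these bulk libraries, and the part of the lower myotube and proliferation markers in the differences was not tested.

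**Figure D2:**
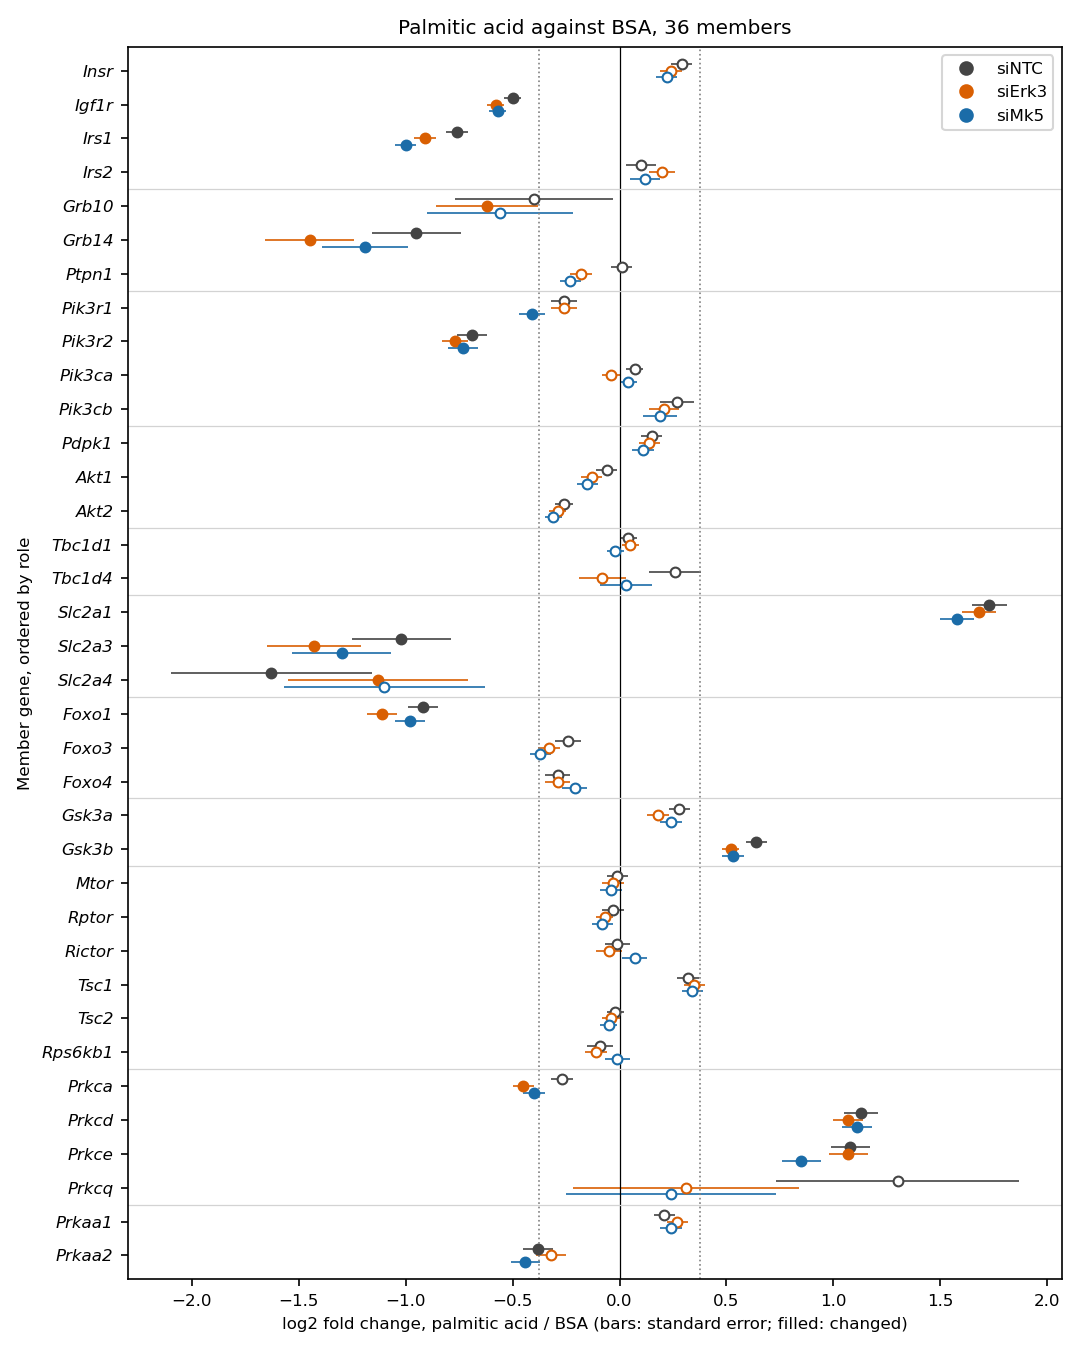
log2 fold change of PA against BSA for the 36 members, grouped by role, in siNTC (grey), siErk3 (orange) and siMk5 (blue), with standard errors. Filled points are changed members, and dotted lines mark a fold change of 1.3. Slc2a1, Prkcd, Prkce and Gsk3b lie to the right in all 3, and Foxo1, Irs1, Igf1r, Grb14, Pik3r2 and Slc2a3 to the left.

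The 3 comparisons share no library. They do share the cell line and the fit, and nothing says whether they were separate experiments. Of the 15 members changed in at least 1 of them, 10 were changed in the same direction in all 3 (66.7%), and no member was changed in opposite directions. Over all genes, 56.4% of those changed in at least 1 were changed in the same direction in all 3. Slc2a1, Gsk3b, Prkcd and Prkce were the 4 higher in all 3, and Igf1r, Irs1, Grb14, Pik3r2, Slc2a3 and Foxo1 the 6 lower in all 3. The log2 fold changes of 31 of the 36 members (86.1%) had the same sign in the 3 comparisons, beside 71.8% of all genes.

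Among the receptors and substrates, Irs1 and Igf1r fell and Insr and Irs2 were not changed. Irs1 encodes the main insulin receptor substrate of muscle and lies on chromosome 1 of GRCm39 from 82210822 to 82269137. It stood at 236, 244 and 249 CPM in siNTC BSA and at 155, 138 and 137 CPM in siNTC PA. In siErk3 it moved from 239, 238 and 235 CPM to 117, 124 and 138 CPM, and in siMk5 from 237, 244 and 262 CPM to 124, 123 and 123 CPM. Every PA library thus lay below every BSA library. The log2 fold change was -0.76 in siNTC (SE 0.05, FDR = 3.13e-13), -0.91 in siErk3 (SE 0.05, FDR = 3.86e-15) and -1 in siMk5 (SE 0.05, FDR = 7e-16).

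Irs2, on chromosome 8 from 11034681 to 11058458, encodes the second widely used substrate of the same receptors. Its levels were 41.1, 43.8 and 45.7 CPM in siNTC BSA against 46.7, 46.4 and 47.1 CPM in siNTC PA. They were 42.8, 40.8 and 39.6 CPM against 50.9, 45.9 and 44.4 CPM in siErk3, and 42.6, 46.7 and 48 CPM against 55, 48.5 and 45.2 CPM in siMk5. The PA and BSA libraries were apart by a small margin in siNTC and siErk3 and overlapped in siMk5. Irs2 had log2 fold changes of 0.1 (95% interval -0.04 to 0.23), 0.2 (0.07 to 0.33) and 0.12 (-0.01 to 0.25) in siNTC, siErk3 and siMk5, all of them within a fold change of 1.3. Per kb, Irs1 was 3.86 times as abundant as Irs2 in siNTC BSA and 2.12 times in siNTC PA, and the ratio moved from 4.01 to 1.85 in siErk3 and from 3.74 to 1.72 in siMk5.

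Igf1r encodes the receptor for insulin-like growth factor 1, which signals through the same substrates. It measured 160, 152 and 156 CPM in siNTC BSA and 112, 110 and 110 CPM in siNTC PA. In siErk3 the values were 158, 151 and 155 CPM with BSA and 102, 99.3 and 108 CPM with PA, and in siMk5 151, 151 and 159 CPM with BSA and 102, 103 and 106 CPM with PA. All 9 PA libraries lay below all 9 BSA libraries. The log2 fold change of Igf1r was -0.5 (SE 0.04, FDR = 4.09e-11) in siNTC, -0.58 in siErk3 and -0.57 in siMk5.

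The insulin receptor gene Insr moved the other way by a smaller amount. It stood at 59.8, 56.2 and 57.5 CPM in siNTC BSA and at 69.9, 72.9 and 69.6 CPM in siNTC PA. With siErk3 the values were 58, 59.5 and 61.4 CPM in BSA and 73.2, 71.4 and 67.2 CPM in PA, and with siMk5 57.7, 55.7 and 63.1 CPM in BSA and 70.8, 67.1 and 67.7 CPM in PA. Its PA libraries lay above its BSA libraries in all 3 comparisons, but the log2 fold changes of 0.29 (FDR = 1.78e-05), 0.24 (FDR = 0.000146) and 0.22 (FDR = 0.000618) stayed below a fold change of 1.3. The ratio of Igf1r to Insr per kb was 2.2 in siNTC BSA and 1.28 in siNTC PA.

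Grb14 and Grb10 encode adaptors that bind the activated insulin receptor and inhibit it. Grb14 stood at 2.67, 2.42 and 2.32 CPM in siNTC BSA and at 1.21, 1.41 and 1.16 CPM in siNTC PA. It moved from 2.54, 2.28 and 2.79 CPM to 0.832, 0.688 and 1.34 CPM in siErk3, and from 2.53, 2.57 and 3.46 CPM to 1.17, 1.35 and 1.19 CPM in siMk5. No PA library reached any BSA library. Its log2 fold changes were -0.95 (SE 0.21, FDR = 0.000346), -1.45 (SE 0.21, FDR = 6.39e-07) and -1.19 (SE 0.2, FDR = 1.11e-05) in siNTC, siErk3 and siMk5. The values rest on 19 to 78 counts per library.

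Grb10 was changed by PA in siErk3 alone, where it went from 2.15, 1.86 and 2.11 CPM to 1.23, 1.16 and 1.64 CPM without overlap, with a log2 fold change of -0.62 (SE 0.24, FDR = 0.0355). DESeq2, a fit with the 18S share as a covariate, and leaving out siErk3 BSA replicate 1 or 3 or siErk3 PA replicate 1 or 2 each ended that call. The values for PA against BSA were -0.4 (FDR = 0.423) in siNTC and -0.56 (FDR = 0.196) in siMk5. The difference between the siErk3 and siNTC values did not pass the interaction test (-0.23, FDR = 0.973). Ptpn1, which encodes the phosphatase PTP1B that dephosphorylates the insulin receptor, was not changed in any comparison, and its smallest FDR was 0.000218 in siMk5 at a log2 fold change of -0.23.

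Of the 4 PI3K members, Pik3r2 fell in all 3 comparisons. It encodes the regulatory subunit p85 beta. Its levels went from 101, 113 and 115 CPM to 71.6, 68.5 and 64.2 CPM in siNTC. They went from 113, 115 and 118 CPM to 59.7, 68 and 74.8 CPM in siErk3, and from 107, 120 and 121 CPM to 65.4, 70.7 and 73.3 CPM in siMk5. The PA libraries were all lower than the BSA libraries, with log2 fold changes of -0.69 (SE 0.07, FDR = 2.69e-10), -0.77 (SE 0.06, FDR = 1.2e-11) and -0.73 (SE 0.07, FDR = 5.7e-11) in siNTC, siErk3 and siMk5.

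Pik3r1, which encodes p85 alpha and its shorter forms, was changed in siMk5 alone. Its values were 116, 107 and 107 CPM in siNTC BSA against 99.9, 88.5 and 86.6 CPM in siNTC PA. They were 106, 107 and 105 CPM against 81.5, 88.3 and 95.6 CPM in siErk3, and 107, 112 and 129 CPM against 82.9, 89.4 and 88.8 CPM in siMk5. The groups did not overlap in any of the 3. The log2 fold change was -0.26 in siNTC and in siErk3, with FDR values of 0.0011 and 0.000919, and -0.41 in siMk5 with an FDR of 1.97e-06. Without siMk5 BSA replicate 3 the value in siMk5 was -0.33, below a fold change of 1.3, and the interaction of siMk5 with PA was -0.16 (FDR = 0.707). The catalytic subunit genes Pik3ca and Pik3cb were not changed, and the smaller FDR of the 2 belonged to Pik3cb, at 0.00484 in siNTC with a log2 fold change of 0.27.

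Pdpk1, Akt1 and Akt2 encode PDK1 and the Akt kinases, and none of the 3 was changed in any comparison. Akt2, the isoform most closely tied to glucose uptake, had the smallest FDR of the 3, 5.7e-07 in siMk5, at a log2 fold change of -0.31. Tbc1d1 and Tbc1d4 encode GTPase-activating proteins that hold back GLUT4 vesicles until they are phosphorylated, and neither was changed. Tbc1d4 came closest with a log2 fold change of 0.26 in siNTC (FDR = 0.0754).

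The glucose transporters moved in opposite directions. Slc2a1 lies on chromosome 4 from 118965908 to 118995180. It stood at 43.2, 47 and 48.6 CPM in siNTC BSA and at 137, 157 and 169 CPM in siNTC PA. In siErk3 it went from 48, 51.7 and 52.2 CPM to 181, 163 and 142 CPM, and in siMk5 from 47.9, 51.4 and 50.2 CPM to 164, 148 and 134 CPM. The lowest PA library, at 134 CPM, exceeded the highest BSA library, at 52.2 CPM, by a wide margin. The log2 fold change was 1.73 in siNTC (SE 0.08, FDR = 9.15e-18), 1.68 in siErk3 (SE 0.08, FDR = 8.04e-18) and 1.58 in siMk5 (SE 0.08, FDR = 7.96e-17), and by p-value Slc2a1 ranked 240, 273 and 261 among the 21772 genes.

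Slc2a3 encodes GLUT3, a high-affinity transporter best known from neurons. Its level was 1.62, 1.88 and 1.89 CPM in siNTC BSA and 1.17, 0.593 and 0.91 CPM in siNTC PA. It was 2.03, 1.77 and 2.15 CPM against 0.613, 0.869 and 0.695 CPM in siErk3, and 2.05, 1.86 and 1.96 CPM against 0.899, 0.745 and 0.722 CPM in siMk5. PA libraries were lower throughout. The log2 fold changes were -1.02 (SE 0.23, FDR = 0.000491), -1.43 (SE 0.22, FDR = 2.69e-06) and -1.3 (SE 0.23, FDR = 2.29e-05) in siNTC, siErk3 and siMk5.

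Slc2a4, on chromosome 11 from 69833365 to 69839014, was sparse in every library. It stood at 0.632, 0.708 and 0.567 CPM in siNTC BSA and at 0.09, 0.41 and 0.101 CPM in siNTC PA, which are 2 to 9 counts. The values were 0.549, 0.675 and 0.572 CPM against 0.131, 0.29 and 0.397 CPM in siErk3, and 0.436, 0.604 and 0.516 CPM against 0.18, 0.186 and 0.361 CPM in siMk5. All PA libraries lay below all BSA libraries, though PA values within a group differed several-fold. Slc2a4 fell by 1.63 on the log2 scale in siNTC (SE 0.47, FDR = 0.00454) and by 1.13 in siErk3 (SE 0.42, FDR = 0.0258), and did not pass in siMk5 (-1.1, SE 0.47, FDR = 0.0585). In siNTC the value ranged from -2.7 to -1.27 when each library was left out in turn, and it was -2.7 without siNTC PA replicate 2. The siErk3 value ranged from -1.45 to -0.84, and the call ended with DESeq2 (-1.15, adjusted p = 0.0647) and without siErk3 BSA replicate 2 or siErk3 PA replicate 1 or 2 (-0.84 without siErk3 PA replicate 1). The siMk5 value ranged from -1.47 to -0.93 and passed without siMk5 PA replicate 3 (-1.47). Neither interaction of silencing with PA passed for Slc2a4, at 0.49 (95% interval -0.83 to 1.82) for siErk3 and 0.53 (-0.88 to 1.94) for siMk5. Per kb, Slc2a1 was 72.1 times as abundant as Slc2a4 in siNTC BSA and 766 times in siNTC PA.

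Foxo1, on chromosome 3 from 52175757 to 52260642, encodes a transcription factor that Akt excludes from the nucleus. Its values were 73.3, 79 and 82.3 CPM in siNTC BSA and 45.6, 42 and 36.8 CPM in siNTC PA. They were 86.5, 87.4 and 85.8 CPM against 34.8, 40 and 45.9 CPM in siErk3, and 78.6, 79.1 and 84.4 CPM against 40.8, 39.8 and 42.5 CPM in siMk5. Foxo1 was lower in all 9 PA libraries, with log2 fold changes of -0.92 (SE 0.07, FDR = 3.11e-12), -1.11 (SE 0.07, FDR = 2.1e-14) and -0.98 (SE 0.07, FDR = 7.82e-13) in siNTC, siErk3 and siMk5. The related factors Foxo3 and Foxo4 had log2 fold changes below 0 in all 3 comparisons with FDR values below 0.05, but neither reached a fold change of 1.3. Foxo3 had the smaller FDR, 1.12e-06 in siMk5, at -0.37, and it did reach that fold there with DESeq2 (-0.38).

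Gsk3b encodes a kinase that restrains glycogen synthase and is inhibited by Akt. It stood at 134, 143 and 145 CPM in siNTC BSA and at 212, 222 and 225 CPM in siNTC PA. With siErk3 it went from 145, 148 and 154 CPM to 226, 210 and 205 CPM, and with siMk5 from 148, 151 and 151 CPM to 220, 218 and 212 CPM. The PA libraries were all above the BSA libraries, and the log2 fold changes were 0.64 (SE 0.05, FDR = 2.93e-13), 0.52 (SE 0.04, FDR = 2.07e-11) and 0.53 (SE 0.05, FDR = 2.19e-11). Its relative Gsk3a was not changed, with its smallest FDR of 2.01e-05 in siNTC at 0.28.

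The mTOR group holds the kinase Mtor, the complex subunits Rptor and Rictor, the inhibitors Tsc1 and Tsc2 and the output kinase Rps6kb1, and none of the 6 was changed in any comparison. Tsc1 had FDR values below 0.05 in all 3 PA comparisons, the smallest being 1.91e-07 in siErk3 at a log2 fold change of 0.35. For the other 5 the FDR stayed above 0.05 in each of the 3. In siNTC, the log2 fold changes of the 6 genes ran from -0.09 to 0.32, with a median of -0.02.

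Of the protein kinase C members, Prkcd and Prkce rose in all 3 comparisons. These isoforms are activated by diacylglycerol and have been linked to lipid-induced insulin resistance. Prkcd, on chromosome 14 from 30317311 to 30348167, stood at 23.6, 28.2 and 26.7 CPM in siNTC BSA and at 50.8, 60.1 and 61.9 CPM in siNTC PA. It went from 27.7, 28.2 and 29.9 CPM to 65.6, 58 and 57.3 CPM in siErk3, and from 28.1, 27.1 and 27.1 CPM to 64.3, 55.5 and 57.3 CPM in siMk5. The lowest PA library lay above the highest BSA library. Its log2 fold changes of 1.13 (SE 0.08, FDR = 9.96e-14), 1.07 (SE 0.07, FDR = 8.68e-14) and 1.11 (SE 0.07, FDR = 1.21e-13) were close to each other.

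Prkce shares 6.5% of its exonic bases with Gm54542. It measured 7.59, 9.83 and 9.41 CPM in siNTC BSA and 19.6, 19.7 and 18.4 CPM in siNTC PA. In siErk3 the values were 8.53, 8.9 and 9.59 CPM with BSA and 17.7, 20.9 and 17.9 CPM with PA, and in siMk5 8.9, 9.31 and 9.44 CPM with BSA and 17.1, 15.6 and 17.2 CPM with PA. All PA libraries were above all BSA libraries, at log2 fold changes of 1.08 (SE 0.09, FDR = 1.04e-11), 1.07 (SE 0.09, FDR = 4.48e-12) and 0.85 (SE 0.09, FDR = 2.12e-09). The interaction of siMk5 with PA was -0.23 for Prkce (95% interval -0.5 to 0.03, FDR = 0.694).

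Prkca, the calcium-dependent isoform, moved in the opposite direction. Its levels were 88.6, 86.6 and 91.9 CPM in siNTC BSA and 74.9, 71.7 and 74.9 CPM in siNTC PA. They were 94.8, 100 and 96.2 CPM against 71.3, 69.6 and 71.9 CPM in siErk3, and 90.2, 90.4 and 93.1 CPM against 65.1, 72 and 69.8 CPM in siMk5. The PA libraries were below the BSA libraries in each case. Prkca was changed in siErk3 (-0.45, FDR = 6.49e-10) and in siMk5 (-0.4, FDR = 1.24e-08), the latter falling just short of a fold change of 1.3 without siMk5 PA replicate 1, and it stayed below that fold in siNTC (-0.27, FDR = 1.36e-05). Neither interaction passed, at -0.19 (FDR = 0.576) for siErk3 and -0.13 (FDR = 0.674) for siMk5. Per kb, the ratio of Prkcd to Prkca was 0.477 in siNTC BSA and 1.27 in siNTC PA, so that their order turned over. Prkcq, at 2 to 9 counts per library, was not changed, and its smallest FDR was 0.0635 in siNTC at 1.3.

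Prkaa1 and Prkaa2 encode the catalytic subunits of AMPK, the kinase that responds to a low energy charge. Prkaa2, the form typical of muscle, stood at 30.6, 29.9 and 29.3 CPM in siNTC BSA and at 23.7, 24.2 and 20.8 CPM in siNTC PA. It went from 32, 36.1 and 38.5 CPM to 30.2, 27.6 and 28 CPM in siErk3, and from 34.8, 33.4 and 32 CPM to 23.8, 25.3 and 25 CPM in siMk5. In each case the groups did not overlap. Prkaa2 was changed in siNTC (-0.38, SE 0.07, FDR = 3.47e-05) and in siMk5 (-0.44, SE 0.07, FDR = 3.27e-06), while in siErk3 (-0.32, SE 0.07, FDR = 0.000167) it was short of a fold change of 1.3. The siNTC call sat at that limit and ended with the 18S share as a covariate (-0.37) and without siNTC PA replicate 3 (-0.34). Prkaa1 was not changed, with its smallest FDR of 3.12e-05 in siErk3 at 0.27.

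**Figure D3:**
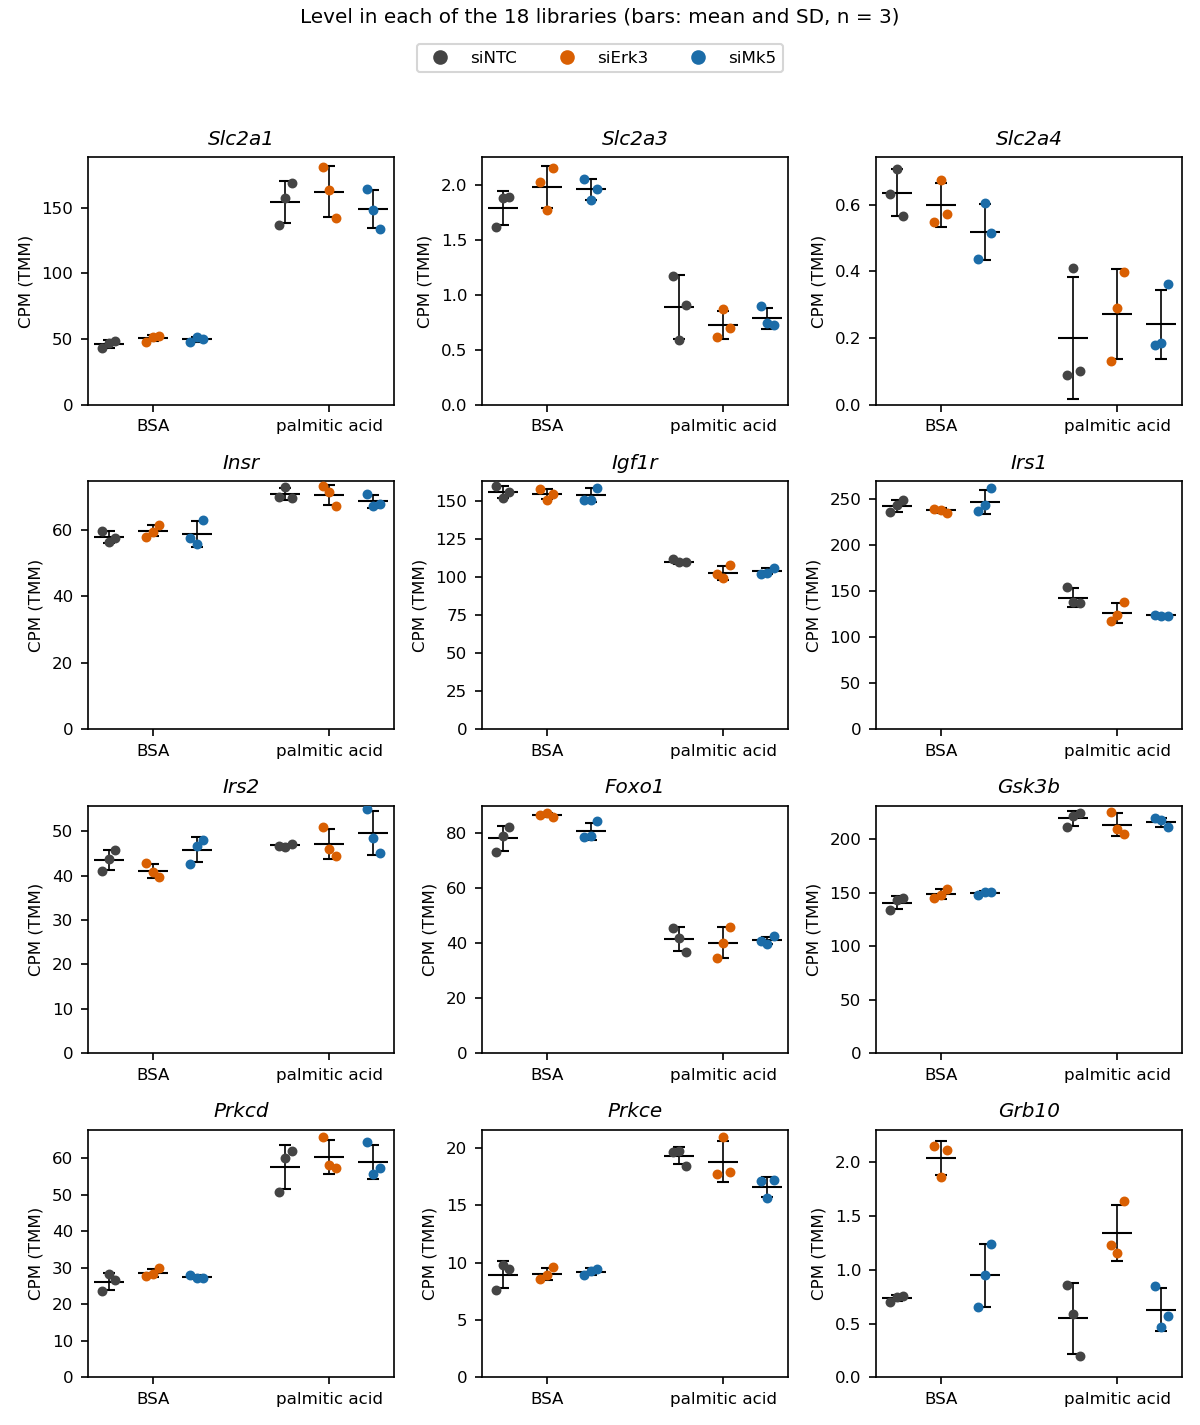
Level of 12 members in each of the 18 libraries in CPM, from 0, with points for libraries and bars for mean and SD of 3, in siNTC (grey), siErk3 (orange) and siMk5 (blue). PA and BSA libraries separate for Slc2a1, Slc2a3, Insr, Igf1r, Irs1, Foxo1, Gsk3b, Prkcd and Prkce, and narrowly for Slc2a4. Grb10 is highest in siErk3 BSA.

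The sequences before the gene starts were searched for 4 motifs on both strands, and the windows that hold the most frequent of them are shown to let the members that share it be compared. RefSeq promoter windows of 300 bases (250 before and 50 after the start, build GRCm38.p6, which differs from the GRCm39 of the count table) were given for 31 of the 36 members, in 40 windows. Foxo4, Insr, Prkce, Slc2a3 and Slc2a4 had no window. The E-box CACGTG, which reads the same on both strands, was found in 3 of the 40 windows and in 7.15% of all 32851 windows. The 3 members were Irs1, which fell with PA, Irs2, which was not changed, and Prkcd, which rose, so members with the same motif differed in their response. They are printed here over the 150 bases before the start, 5′ to 3′ on the minus strand, which carries all 3 genes, with the E-box in capitals. The first base of the motif lies 115, 44 and 106 bases before the start in Irs1, Irs2 and Prkcd.
Irs1 (chr1:82291440-82291589): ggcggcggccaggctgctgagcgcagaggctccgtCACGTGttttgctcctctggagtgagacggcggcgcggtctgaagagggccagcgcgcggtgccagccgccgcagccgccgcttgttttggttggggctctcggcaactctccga
Irs2 (chr8:11008930-11009079): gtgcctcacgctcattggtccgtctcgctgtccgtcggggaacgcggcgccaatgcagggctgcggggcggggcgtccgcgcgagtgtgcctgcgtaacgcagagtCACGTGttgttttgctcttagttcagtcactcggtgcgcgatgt
Prkcd (chr14:30626209-30626358): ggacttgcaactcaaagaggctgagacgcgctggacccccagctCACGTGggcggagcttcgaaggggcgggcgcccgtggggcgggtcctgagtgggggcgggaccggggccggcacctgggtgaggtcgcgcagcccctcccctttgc

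The FoxO motif GTAAACA was found in 1 member window, that of Akt1, and in 3.65% of all windows. The full cAMP response element TGACGTCA (1.79% of all windows) and the ATF4 composite TGATGCAA (0.895%) were found in 0 member windows. None of the 4 motifs overlaps another in the printed sequences. A match describes letters in a window and is no evidence that a factor binds there.

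Silencing of Erk3 or Mk5 was compared with siNTC within each medium, which asks whether either kinase acts on these genes. Only Grb10 was changed, and only in siErk3 BSA, where it rose. In siErk3 BSA 1 of 36 members was changed, beside 0.785% of all genes in either direction and 0.588% higher, and the groups did not overlap for 8 members (22.2%), beside 17.4% of all genes. In the other silencing comparisons edgeR called 0 of 36 members, as did DESeq2. In siMk5 BSA 0.0643% of all genes were changed, 3 members had an unadjusted p below 0.05, and the groups did not overlap for 7 members (19.4%), beside 12.3% of all genes. In siErk3 PA 0.556% of all genes were changed, 4 members had an unadjusted p below 0.05, and the groups did not overlap for 7 members (19.4%), beside 12.1% of all genes. In siMk5 PA the share of all genes was 0.547%, 7 members had an unadjusted p below 0.05, and the groups did not overlap for 6 members (16.7%), beside 12% of all genes. All 4 comparisons use the siNTC libraries of their medium as controls, so those of the same medium share them.

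**Figure D4:**
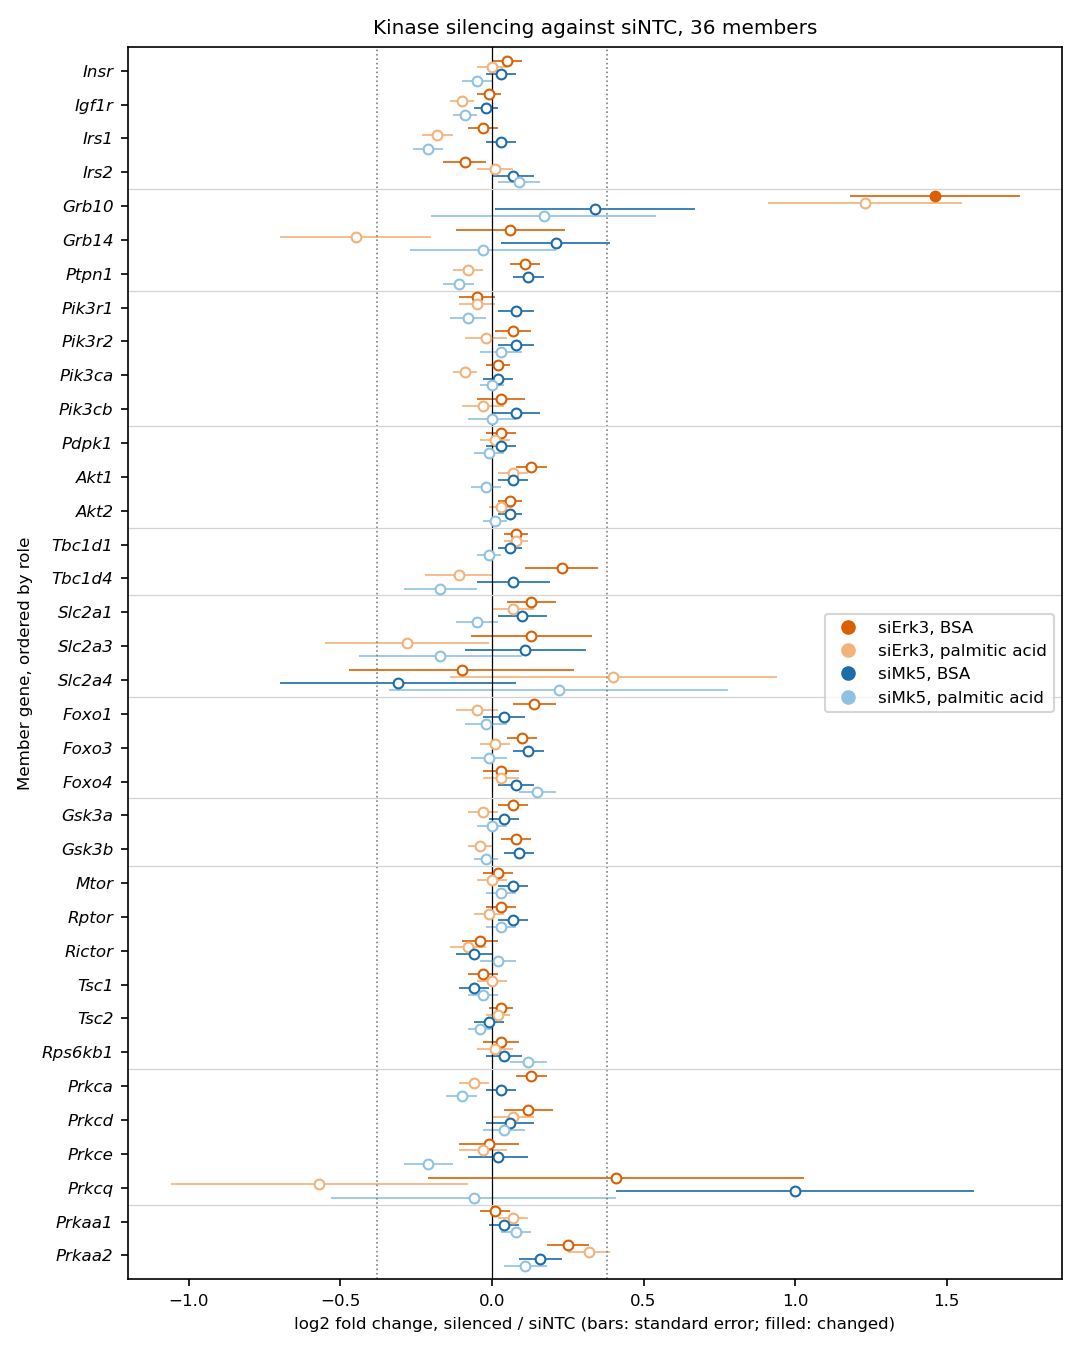
log2 fold change of siErk3 (orange) and siMk5 (blue) against siNTC for the 36 members, with standard errors, in BSA (dark) and PA (light). Dotted lines mark a fold change of 1.3. The single filled point, a changed member, is Grb10 in siErk3 BSA, and the wide bars belong to Grb10, Grb14, Slc2a3, Slc2a4 and Prkcq.

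Grb10 lies on chromosome 11 from 11880508 to 11988683. Its level was 0.702, 0.75 and 0.757 CPM in siNTC BSA, 2.15, 1.86 and 2.11 CPM in siErk3 BSA and 0.654, 0.956 and 1.24 CPM in siMk5 BSA. With PA it was 0.855, 0.593 and 0.202 CPM in siNTC, 1.23, 1.16 and 1.64 CPM in siErk3 and 0.854, 0.466 and 0.568 CPM in siMk5. The siErk3 libraries were above all siNTC and siMk5 libraries of the same medium. These levels are low, at 10 to 18 counts in siNTC BSA and 44 to 59 counts in siErk3 BSA. Against siNTC, the log2 fold change was 1.46 in siErk3 BSA (SE 0.28, FDR = 0.00313) and 1.23 in siErk3 PA (SE 0.32, FDR = 0.0612). The BSA value stayed between 1.43 and 1.53 when each library was left out, and its FDR was 0.0544 with the 18S share, 1.5% to 2.96% in siErk3 BSA and 2.56% to 7.17% in siNTC BSA, as a covariate. The part of the 18S share in the difference was otherwise not tested. The PA value ranged from 0.87 without siNTC PA replicate 3 (FDR = 0.24) to 1.69 without siNTC PA replicate 1 (FDR = 0.0187), the only library whose absence let it pass, and it also passed without the filter on low counts. In siMk5, Grb10 differed from siNTC by 0.34 in BSA (95% interval -0.35 to 1.02) and by 0.17 in PA (-0.59 to 0.94).

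A direct comparison of siErk3 with siMk5 gave the same gene. It reuses the siErk3 libraries of the comparison with siNTC, so it is no independent test of Grb10. In BSA 1 of 36 members was changed, beside 0.588% of all genes in either direction and 0.482% higher, and this was Grb10, higher in siErk3 by 1.12 (SE 0.27, FDR = 0.0318). The groups did not overlap for 4 members (11.1%), beside 15.3% of all genes. DESeq2 and the 18S covariate each ended the call, and so did 5 of the 6 fits that left out 1 library, with values between 0.89 and 1.35. The call remained only without siMk5 BSA replicate 3. In PA 0 of 36 members were changed by edgeR and by DESeq2, beside 1.03% of all genes by edgeR. An unadjusted p below 0.05 was found for 4 members, and the share of all genes at that p was not counted. The groups did not overlap for 5 members (13.9%), beside 14.7% of all genes. Grb10 was higher in siErk3 PA than in siMk5 PA by 1.06 (SE 0.31, FDR = 0.097).

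Beside Grb10 in siErk3 BSA, Prkaa2 in siErk3 PA was the other member with an FDR below 0.05 against siNTC. The share of all genes at that FDR was 1.21% in siErk3 BSA, 0.0827% in siMk5 BSA, 0.854% in siErk3 PA and 0.776% in siMk5 PA. Prkaa2 was higher in siErk3 PA than in siNTC PA, in all 3 against all 3 libraries as given above, by 0.32 on the log2 scale (SE 0.07, FDR = 0.0155), which is a fold change of 1.25 and below the limit of 1.3. The FDR was 0.0985 without siNTC PA replicate 3, 0.0754 without siErk3 PA replicate 1 and 0.114 in a fit on those groups alone. In BSA the difference was 0.25 (SE 0.07, FDR = 0.0632), again without overlap. In siMk5 it was 0.16 in BSA (FDR = 0.655).

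For most members the intervals limit how large an effect of silencing to this extent could be. By RNA, Mapk6 stood at 0.43 of siNTC in siErk3 BSA and 0.52 in siErk3 PA. Mapkapk5 stood at 0.66 in siMk5 BSA and 0.71 in siMk5 PA, with an FDR of 0.469 by edgeR for either. The authors report that Western blots verified silencing of both kinases for these experiments, and that Mk5 silencing lowered Erk3 protein. The intervals do not bound the effect of a full loss of a kinase. The 95% interval of the log2 fold change lay within a fold change of 1.3 in either direction for 29 of 36 members in siErk3 BSA, 31 in siMk5 BSA, 30 in siErk3 PA and 29 in siMk5 PA. Slc2a1 differed by 0.13 (-0.04 to 0.29) in siErk3 BSA, 0.1 (-0.07 to 0.27) in siMk5 BSA, 0.07 (-0.08 to 0.22) in siErk3 PA and -0.05 (-0.2 to 0.09) in siMk5 PA. Irs1 differed by -0.18 (-0.3 to -0.07, FDR = 0.14) in siErk3 PA and by -0.21 (-0.33 to -0.1, FDR = 0.0628) in siMk5 PA. For Slc2a4, in contrast, the interval in siErk3 BSA ran from -0.84 to 0.65, and differences of that size were not detectable at this depth. The intervals of Grb10, Grb14, Slc2a3, Slc2a4 and Prkcq passed the limit in all 4 comparisons.

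Whether silencing altered the response to PA was tested by the interactions. In the interaction of siErk3 with PA, 0 of 36 members were changed by edgeR and by DESeq2, beside 0.0367% of all genes by edgeR, and 3 members had an unadjusted p below 0.05, namely Prkca (-0.19, FDR = 0.576), Ptpn1 (-0.19, FDR = 0.598) and Tbc1d4 (-0.34, FDR = 0.811). In that of siMk5 with PA, 0 of 36 members were changed by either tool, beside 0.211% of all genes by edgeR, and 2 members had an unadjusted p below 0.05. Those 2 were Ptpn1 (-0.24, FDR = 0.25) and Irs1 (-0.24, 95% interval -0.39 to -0.08, FDR = 0.346). The members of both interactions are named because they are the only ones, and shares of all genes at that unadjusted p were not counted. For Slc2a1 the interaction was -0.05 (-0.28 to 0.17) with siErk3 and -0.15 (-0.38 to 0.07) with siMk5. The interval lay within a fold change of 1.3 for 29 members with siErk3 and for 26 members with siMk5.

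A further 112 genes of the same pathways, in 9 lists, were followed beside the members, and 107 of them were tested. With PA, 24 were higher and 20 lower in siNTC, 20 higher and 25 lower in siErk3, and 21 higher and 24 lower in siMk5. The changed share was 41.1%, 42.1% and 42.1% of the 107, beside 30.6%, 32.1% and 29.7% of all genes. The lists were chosen with earlier results of these data known, and the part of depth in these shares was not tested. For the counts by list that follow, the shares of all genes were 15.5%, 15.8% and 15.1% higher and 15.1%, 16.3% and 14.6% lower in siNTC, siErk3 and siMk5, and lists of this size give coarse shares. Among 9 ligands and binding proteins, 0 were higher and 4, 6 and 6 were lower in siNTC, siErk3 and siMk5 (44.4%, 66.7% and 66.7%), Igf1 among them. Igf1, the growth factor that activates Igf1r, went from 112, 103 and 104 CPM to 49.8, 39.3 and 29.5 CPM in siNTC, a log2 fold change of -1.42 (SE 0.16, FDR = 4.11e-09), with -1.66 in siErk3 and -1.74 in siMk5. Igf1 was lower in all PA than in all BSA libraries of the same siRNA, as was its receptor Igf1r.

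Beside Slc2a1, Hk2 rose, which encodes the hexokinase that traps glucose in muscle cells. It stood at 39.6, 41.5 and 43.2 CPM in siNTC BSA and at 131, 150 and 160 CPM in siNTC PA, with log2 fold changes of 1.82 (SE 0.08, FDR = 1.38e-18), 1.74 and 1.71 in siNTC, siErk3 and siMk5. In its list of other transporters, hexokinases and transporter brakes, 5 of 13 were higher and 1 lower in siNTC, 3 and 1 in siErk3, and 3 and 2 in siMk5. Of 19 GLUT4 vesicle trafficking genes, 1 was higher and 1, 3 and 3 were lower in siNTC, siErk3 and siMk5. The higher one was Cltc, the clathrin heavy chain (0.57, 0.54 and 0.47), and Rab13, a GTPase of GLUT4 vesicles in muscle cells, was lower in all 3 (-0.72, -0.91 and -0.75).

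The largest increase in these lists was in Trib3, a pseudokinase induced by stress that has been described as an inhibitor of Akt. It stood at 4.28, 3.75 and 4.02 CPM in siNTC BSA and at 121, 131 and 136 CPM in siNTC PA, a log2 fold change of 5.02 (SE 0.08, FDR = 6.1e-29), with 4.89 in siErk3 and 5.09 in siMk5. In the list of other PI3K, lipid phosphatase and Akt genes, 3 of 14 were higher and 2, 4 and 3 lower in siNTC, siErk3 and siMk5. Pik3r3, the gene of a further PI3K regulatory subunit, was lower in all 3 (-1.24, -1.49 and -1.3), as was Pik3r2 among the members.

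While the 6 members of the mTOR group were not changed, 7, 7 and 6 of 20 other genes around mTOR were higher and 5, 6 and 4 lower in siNTC, siErk3 and siMk5. Sesn2, an amino acid sensor that inhibits mTOR complex 1, rose by 1.95 (SE 0.08, FDR = 1.45e-18), and Eif4ebp1, the translation repressor that mTOR complex 1 phosphorylates, by 1.68 (SE 0.07, FDR = 3.21e-18) on the log2 scale in siNTC. Sesn1 fell by 0.9 (SE 0.05, FDR = 7.72e-15). The regulatory AMPK subunit Prkag3, found mainly in glycolytic muscle, was lower in all 3 (-1.12, -1.01 and -0.85), and in its list 1 of 8 was higher and 2 were lower in each. Of 5 other FoxO and glycogen synthase genes, Foxo6 was lower in all 3 (-1.29, -1.29 and -1.19), and 1, 0 and 1 were higher and 3, 1 and 2 lower in siNTC, siErk3 and siMk5. Of 7 other protein kinase C genes, 2, 3 and 3 were higher and 0 lower, with Prkci higher in all 3 (0.47, 0.39 and 0.39). Of 12 receptor adaptors and phosphatases, 4, 2 and 3 were higher and 2 lower in each, with the adaptor Shc1 higher (0.64, 0.59 and 0.52) and the receptor phosphatase Ptprf lower (-0.85, -0.86 and -0.79) in all 3.

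In the silencing comparisons, 1 of the 107 genes was higher and 1 lower in siErk3 BSA, 1 was lower in siErk3 PA, and in siMk5 0 were changed in either medium. The changed share was 1.87% in siErk3 BSA, beside 0.785% of all genes, and 0.935% in siErk3 PA, beside 0.556%. The gene lower in siErk3 BSA was Ppp1r3c, which encodes a subunit that directs protein phosphatase 1 to glycogen. It stood at 3.23, 3.63 and 2.98 CPM in siNTC BSA and at 2.03, 1.94 and 2.11 CPM in siErk3 BSA, without overlap and with a log2 fold change of -0.7 (SE 0.16, FDR = 0.0167). The other 2 were Rragd, a Rag GTPase gene, higher in siErk3 BSA, and Igfbp4, lower in siErk3 PA. They are named because they are the only ones.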

How the data were processed

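The authors deposited, without normalization, counts of read pairs per gene for 18 libraries. Per the file headers, featureCounts 2.0.0 was run on GRCm39 with Ensembl 105, strand setting 2 and a minimum mapping quality of 3, so that reads shared by overlapping genes of the same strand were not counted. A second deposited table of log2 values was not used. Groups and replicate numbers came from the labels. The counts were analysed in R 4.3.3 with edgeR 4.0.16 and limma 3.58.1 on genes with at least 10 counts in total, with TMM scaling and 1 coefficient for each of the 6 groups over all 18 libraries. The quasi-likelihood test was adjusted over all genes by the Benjamini-Hochberg method, and a gene was called changed at an FDR below 0.05 with a fold change above 1.3. Intervals are 95% intervals from the same fit. The steps were tested on simulated data in which only well-counted genes were changed, so that test does not cover the sparse members. Library totals ran from 13041979 to 28496727 counts, which limits precision most for the sparse members.

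The members and the further gene lists were chosen with earlier results of these data known. Values in every library are given for Insr, Igf1r, Irs1, Irs2, Slc2a1, Slc2a3, Slc2a4 and each member changed in any of 11 comparisons. Of the others, the member with the smallest FDR is named for each role. From each further list at most 3 genes with the smallest FDR are named, apart from those named as the only ones. Alternatives were DESeq2 1.42.0, its size factors, other filters, fits on the compared groups alone, the 18S share as covariate, the replicate number as a block, and leaving out each library. Promoter windows came from RefSeq tables and were searched with Python 3.11.15.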

Additional observations from a re-analysis of the deposited data

How the results depend on the processing

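None of the 43 single-member values described below changed direction under any alternative. The direction of other values was not followed. With the 18S share as a covariate the count of changed members fell from 1 to 0 in siErk3 against siNTC in BSA and in siErk3 against siMk5 in BSA, and the latter was also 0 with DESeq2. Without the filter on low counts, 1 member passed in siErk3 against siNTC in PA and 1 in siErk3 against siMk5 in PA, where none had passed. With the FDR alone, without a limit on the fold, the counts were 1 in siErk3 against siNTC in PA and 23, 27 and 23 for PA against BSA in siNTC, siErk3 and siMk5, since the rule is wider. When each library was left out in turn, the counts ranged from 0 to 1 in siErk3 against siNTC in PA (1 without siNTC PA replicate 1), from 0 to 1 in siErk3 against siMk5 in BSA (1 only without siMk5 BSA replicate 3), and from 11 to 13, 11 to 13 and 12 to 14 for PA against BSA in siNTC, siErk3 and siMk5. Of 43 values of single members, those changed and 3 others near the threshold, 39 kept their side of the threshold with the 18S covariate, 40 with DESeq2, 42 with either other filter and all 43 with DESeq2 size factors or with the compared groups alone. Outside these 43, Foxo3 in siMk5 gained a call with DESeq2 (-0.38), its size factors (-0.38) and the compared groups alone (-0.39), for a count of 14. Slc2a4, among the 43, gained one there with the filter by expression (-1.1). Grb10 was the member that passed without the filter in siErk3 against siMk5 in PA (1.07). With DESeq2 the count for PA in siErk3 was 11, without Grb10 and Slc2a4. The cause of these changes was not tested. The labels give the groups the same replicate numbers. The offset of each library from its group mean was correlated between groups over 11587 genes, number by number. Mean correlations ran from -0.34 to 0.27. Within PA, replicates 1, 2 and 3 gave -0.51, -0.01 and -0.5 for siErk3 against siNTC. They gave -0.4, 0.05 and -0.35 for siMk5 against siNTC, and 0.44, 0.01 and 0.35 for siErk3 against siMk5. All other single values ran from -0.09 to 0.14. What lies behind the PA pattern was not tested, nor whether equal numbers mark a shared batch. With the replicate block the counts were 1 in siErk3 BSA and 12, 13 and 13 for PA in siNTC, siErk3 and siMk5, and it changed no call. Depth limits Grb10, Grb14, Prkcq, Slc2a3 and Slc2a4 most.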

Other observations

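The genes outside the list whose mean levels over the 6 groups followed those of Slc2a4 most closely, among 12700 genes with a mean of at least 1 CPM, were Rbbp9 (Pearson correlation 1), Pgam2 (0.998), Psmg1 (0.997), 9430015G10Rik (0.997) and Sema6c (0.997). The 6 points are group means that share the contrast of PA with BSA, and the counts of Slc2a4 are few, so these values are a description only. Per kb, the ratio of Prkaa1 to Prkaa2 was 4.76 in siNTC BSA and 7.14 in siNTC PA, that of Pik3r1 to Pik3r2 0.416 and 0.558, and that of Akt1 to Akt2 3.01 and 3.45. The Akt1 to Akt2 ratio moved least of the 3, and both Akt genes stayed within a fold change of 1.3 in all comparisons. Among the genes beside the list, Slc2a6, a further glucose transporter gene, was higher with PA by 0.53, 0.72 and 0.67 on the log2 scale in siNTC, siErk3 and siMk5, in contrast to Slc2a3 and Slc2a4. Mapk6 itself, the gene of Erk3, was higher with PA by 0.81 in siNTC, 1.06 in siErk3 and 0.74 in siMk5.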
